A study of Homo sapiens with 84 samples.

Results

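In all, 10 genes that set the pace of the first growth phase of the cell cycle were followed across 2 squamous carcinoma lines treated with EGF or with EpEX, the shed outer domain of the adhesion protein EpCAM. They were taken by name: the CDK inhibitors CDKN1A, CDKN1B, CDKN1C and CDKN2B, the D-type cyclins CCND1, CCND2 and CCND3, their kinases CDK4 and CDK6, and the transcription factor MYC. All 10 symbols matched 1 row each among the 58395 gene rows of the count files, and the rule uses no measured value. Of the 10, 9 passed the filter on low counts in Kyse30 and 10 passed in FaDu. CCND2 was the member left out in Kyse30.

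Kyse30 is a line from an oesophageal squamous cell carcinoma and FaDu one from a carcinoma of the hypopharynx. Both were kept without serum, which all groups shared, and were collected before treatment (untreated, 0 h), or after 6 h and 72 h without treatment, with the Fc part of immunoglobulin (Fc), with 1.8 nM EGF (EGFlow), with 9 nM EGF (EGFhigh), with EpEX fused to Fc (EpEX), or with EGFhigh and EpEX together (EGFhigh+EpEX). Untreated cells were the controls for EGF and Fc-treated cells those for EpEX and for EGFhigh+EpEX. Each line is a single culture line carrying its own tumour's alterations, and libraries of 3′ ends of messenger RNA were read from 43 samples of Kyse30 and 41 of FaDu. The labels do not say whether replicates were separate cultures, so p-values measure the spread between these samples, which may be technical.

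A cell that passes from the first growth phase into DNA synthesis needs cyclin-dependent kinases. Growth factor signals through the EGF receptor and ERK raise D-type cyclins, which bind CDK4 or CDK6 and start the inactivation of the retinoblastoma protein. CDKN2B (p15) binds CDK4 and CDK6 and keeps the cyclins off, whereas CDKN1A (p21), CDKN1B (p27) and CDKN1C (p57) bind whole cyclin-kinase complexes. MYC pairs with MAX on E-box sequences and drives genes of growth and ribosome building.

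The DNA before the start sites of 3 members is shown. They are CDKN1A and CDK6, whose levels passed the test after treatment, and CDK4, the other kinase of the D cyclins. CDK4 itself was called in no comparison of the main fits. CCND1 also passed after treatment, but no promoter was matched to it. Sequences are RefSeq's (build GRCh38.p14), the 250 bases before an annotated start (for CDK6 the one of 2 starts whose window held matches), written 5′ to 3′ on the strand of the gene. Capitals mark exact matches on either strand to the searched motifs, GGGCGG (Sp1) in all 3 and CACGTG (the E-box) in CDK4.
CDKN1A, chr6:36678464-36678713, plus strand: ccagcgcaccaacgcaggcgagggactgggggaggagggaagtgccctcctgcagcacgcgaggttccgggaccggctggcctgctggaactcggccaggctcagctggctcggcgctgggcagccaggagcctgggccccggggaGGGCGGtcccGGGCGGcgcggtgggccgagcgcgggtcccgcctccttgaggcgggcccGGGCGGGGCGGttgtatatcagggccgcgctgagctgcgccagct
CDK6, chr7:92836574-92836823, minus strand: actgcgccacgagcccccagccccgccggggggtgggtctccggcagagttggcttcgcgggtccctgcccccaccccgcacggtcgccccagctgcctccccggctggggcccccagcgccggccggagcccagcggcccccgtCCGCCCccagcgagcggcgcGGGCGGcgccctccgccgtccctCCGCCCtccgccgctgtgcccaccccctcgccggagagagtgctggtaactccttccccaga
CDK4, chr12:57752311-57752560, minus strand: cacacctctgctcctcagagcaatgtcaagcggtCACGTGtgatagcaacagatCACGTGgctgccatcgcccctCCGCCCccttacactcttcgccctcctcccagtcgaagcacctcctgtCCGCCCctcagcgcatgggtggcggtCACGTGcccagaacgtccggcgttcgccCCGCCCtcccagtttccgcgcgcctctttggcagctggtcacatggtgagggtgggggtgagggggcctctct

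The GGGCGG motif occurred 4 times before CDKN1A, a pair of them overlapping, and 3 times each before CDK6 and CDK4. It occurred 2 times before CDKN2B, 1 time before CDKN1B, and 5, 2 and 0 times before the 3 starts of CCND3. It is common: 42.6% of 35116 promoter windows of this length held at least 1 copy. The E-box stood 3 times before CDK4 and in 6.34% of all windows. TGANTCA (AP-1, in 6.57% of windows), TGACGTCA (CRE, 1.65%), TATAAA (the core promoter box bound by TBP, 10.7%), TTTGGCGC (E2F, 0.55%) and TTTCCCGC (E2F, 1.39%) had no match in these 3 windows, nor in the windows of CDKN1B, CDKN2B and CCND3. The table of promoters matched 6 of the 10 members. CDKN1C, CCND1, CCND2 and MYC were not matched. A match in letters is a description of the sequence and not a bound site.

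Values are CPM, read counts divided by a library's total on genes put on a common total and scaled between libraries, and a member was called at a Benjamini-Hochberg adjusted p of at most 0.05 together with an absolute log2 fold change over 0.5 (edgeR quasi-likelihood test, adjusted over all genes tested). Kyse30 libraries held 1944948 to 11759799 counts on genes and those of FaDu replicates 3 and 4 held 6217938 to 12442349. The FaDu libraries of replicates 1 and 2 stood apart. Their median Spearman correlation with each other was 0.854, against 0.936 within replicates 3 and 4 and 0.84 between the sets (across 24110 genes), and CCND2 was under 10 CPM in 18 of 21 of them. The rule for this gene set names the FaDu libraries of replicates 3 and 4. FaDu results rest on those 20 libraries, with 1 or 2 per condition. CCND2 is itself a member, and its level is no support for that choice. With all FaDu libraries in 1 fit edgeR called no gene in any of the 7 FaDu comparisons, and values from that fit are given beside several results. The squamous epithelial markers summed to 1520 to 4010 CPM in Kyse30 and to 2040 to 6390 CPM in FaDu. In Kyse30 the largest medians on this list were those of SFN, PERP, DSP, EPCAM and CDH1 (802, 640, 359, 212 and 189 CPM). KRT5, KRT14, KRT17, PKP1 and TP63 had low ones (2.1, 0.688, 11.7, 0.214 and 19.3 CPM), so the sum says little on those. Fibroblast markers summed to at most 44.6 CPM and leukocyte and endothelial markers to at most 14.2 CPM, with PECAM1 at 0 in all Kyse30 libraries and CD3E at 0 in all FaDu libraries used. In bulk samples, fewer cells of a kind and less RNA per cell cannot be told apart.

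Among the CDK inhibitors, CDKN1A rose in FaDu after 6 h with EGFlow, with EGFhigh and with EpEX. CDKN1A encodes p21, a target of p53 and of growth factor signalling that stops cyclin-kinase complexes. Untreated FaDu cells at 6 h stood at 15.2 and 29 CPM in replicates 3 and 4, EGFlow at 126 and 194 CPM and EGFhigh at 104 and 146 CPM. Fc-treated cells stood at 11.7 and 17.8 CPM and EpEX-treated cells at 148 and 232 CPM. Every treated library lay above every control library, and replicate 4 was the higher one in each of these groups.

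The log2 fold change of CDKN1A was 2.86 (SE 0.34, adjusted p = 5.31e-05, n = 2 and 2) with EGFlow, where CDKN1A was the 1 called member of 10 and 3.45% of all genes were called. With EGFhigh it was 2.50 (SE 0.33, adjusted p = 0.000241), again the 1 called member against 3.06% of all genes. With EpEX it was 3.68 (SE 0.35, adjusted p = 5.47e-06), a 12.8-fold difference, the 1 called member against 3.5% of all genes. The call held without each of the libraries in turn in these 3 comparisons, with adjusted p of at most 0.0149. Each such fit leaves 1 library in an arm, which is assumed to vary like the other groups. Between EGFhigh and EGFlow, edgeR called 0 of 10 members and 0 of 16022 genes (0 members and 393 genes at an unadjusted p under 0.05), and DESeq2 called none either.

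Replicates 1 and 2 of FaDu did not follow this order. On CPM of raw totals, CDKN1A was at 8.64 CPM in the EpEX library of replicate 2 at 6 h and at 75.7 and 200 CPM in the Fc libraries of replicates 1 and 2. With EGFhigh at 6 h it was at 466 CPM in replicate 1 and 14.7 CPM in replicate 2, against 73.4 and 30.7 CPM in the untreated ones. With all FaDu libraries in 1 fit, the log2 fold change was 0.76 for EpEX, 1.75 for EGFlow and 2.36 for EGFhigh, with adjusted p of 1, 0.988 and 0.739, and edgeR called 0 of 18533 genes in each of the 3 comparisons (829, 966 and 1248 genes at an unadjusted p under 0.05).

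**Figure D1:**
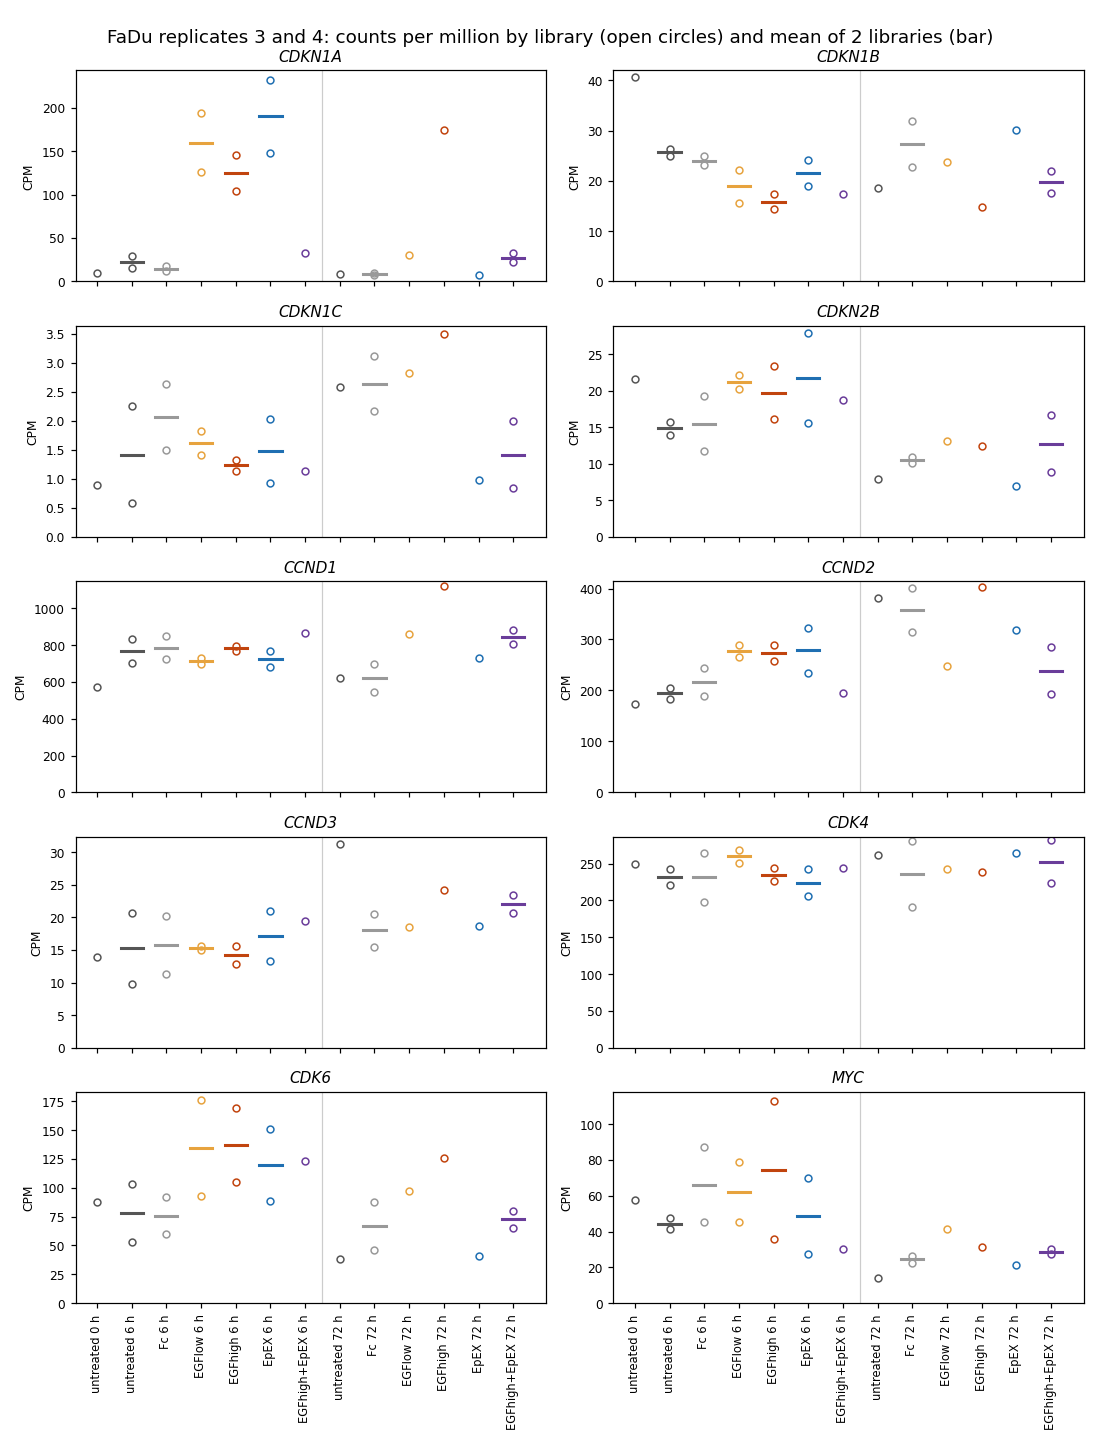
CPM of the 10 members (y axis, linear from 0) in FaDu replicates 3 and 4 for each condition (x axis, 0 h and 6 h left and 72 h right of the line); open circles are libraries and bars are means of 2 libraries. CDKN1A is high with EGFlow, EGFhigh and EpEX at 6 h (104 to 232 CPM) and in the single EGFhigh library at 72 h (174 CPM).

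The single FaDu library with EGFhigh+EpEX at 6 h held 32.6 CPM of CDKN1A, under the libraries of either agent alone in replicates 3 and 4 and above its Fc controls at 11.7 and 17.8 CPM. No test was made with this 1 library, and replicates 1 and 2 held 11.3 and 13.4 CPM on raw totals. At 72 h, single libraries of replicates 3 and 4 stood at 8.18 CPM untreated, 30.1 CPM with EGFlow, 174 CPM with EGFhigh and 7.70 CPM with EpEX. Replicates 1 and 2 gave another order, on CPM of raw totals: 8.84 and 37.7 CPM untreated, 42.7 and 10.8 CPM with EGFlow, 17.2 and 41.7 CPM with EGFhigh, and 530 and 95.1 CPM with EpEX. With EGFhigh+EpEX the pair of libraries stood at 22.5 and 32.1 CPM, against 9.67 and 6.82 CPM with Fc. They did not overlap, and CDKN1A rose by 1.73 on the log2 scale (SE 0.35, adjusted p = 0.0233), the 1 called member where 0.818% of all genes were called. Adjusted p was 0.113 without the Fc library of replicate 3, 0.337 without that of replicate 4 and 0.333 without the EGFhigh+EpEX library of replicate 4. With all FaDu libraries the log2 fold change was 0.37 (adjusted p = 1).

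In Kyse30, CDKN1A did not pass the test in any comparison of a treatment with its control. At 6 h, untreated cells held 149, 112 and 194 CPM, cells with EGFhigh 309, 96.0, 209 and 187 CPM, and EpEX-treated cells 113, 123 and 156 CPM. The ranges overlapped. At 72 h, cells with EGFhigh held 218, 240 and 302 CPM and untreated cells 103, 75.5 and 135 CPM. The ranges were apart, with a log2 fold change of 1.27 (95% interval 0.32 to 2.23, adjusted p = 0.104). EGFhigh+EpEX at 72 h held 101, 82.7 and 151 CPM, all under the EGFhigh libraries, with a log2 difference of -1.18 between these groups (95% interval -2.13 to -0.23, adjusted p = 0.172).

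The EpEX response of CDKN1A at 6 h differed by -3.80 on the log2 scale in Kyse30 against FaDu replicates 3 and 4 (SE 0.73, adjusted p = 0.00497). It was the 1 called member of 10, where 0.127% of 19634 genes were called. Without the FaDu Fc libraries of replicate 3 and of replicate 4, adjusted p was 0.222 and 0.0512, and without the FaDu EpEX library of replicate 4 it was 0.0734. The difference in response was -2.57 for EGFlow (95% interval -3.96 to -1.19, adjusted p = 0.18) and -2.08 for EGFhigh (95% interval -3.45 to -0.70, adjusted p = 0.668), and neither passed the test.

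Targets of p53 other than CDKN1A were read as a list of 24 genes. In FaDu at 6 h, 3 of 23 tested rose with EGFlow and none fell, 3 rose with EGFhigh and none fell, and 4 rose and 1 fell with EpEX. The medians over the list were -0.22, -0.10 and -0.01 on the log2 scale, beside -0.02, -0.01 and -0.01 over all genes. AEN, a nuclease of the cell death response, rose by 1.69 with EGFlow (adjusted p = 9.08e-05). GADD45A, a stress sensor that stops division, rose by 1.13 (adjusted p = 0.00568), and SESN2, a stress-induced brake on growth signalling, rose by 1.09 (adjusted p = 0.0013). The list of ERK output genes had 6, 6 and 5 of 14 rising with EGFlow, EGFhigh and EpEX, with medians of 0.91, 1.14 and 0.91. Its leading gene FOSL1, a subunit of AP-1, rose by 2.31, 2.29 and 2.46 (adjusted p = 0.0013, 0.00165 and 0.000741). Markers of the epithelium itself moved too: KRT17 rose by 2.15, 2.09 and 2.42 and SFN, a p53 target, by 1.48, 1.66 and 1.67 in these 3 comparisons, out of 10 squamous markers tested of which 3, 2 and 2 rose. Their part in the CDKN1A result was not tested. DINOL, an RNA on the opposite strand, overlaps CDKN1A.

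CDKN1B lay between 17.4 and 46.7 CPM over all Kyse30 libraries and between 14.4 and 40.7 CPM over those of FaDu replicates 3 and 4, and it was called in no comparison. Its largest value against a control was in FaDu with EGFhigh at 6 h, where libraries at 17.3 and 14.4 CPM lay under the untreated ones at 26.4 and 25.0 CPM (log2 fold change -0.69, 95% interval -1.25 to -0.14, adjusted p = 0.221). With all FaDu libraries it turned to 0.41.

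CDKN2B, which lies beside CDKN2A on chromosome 9 (GRCh38, chr9:22002903-22009363, minus strand), fell in no comparison past the threshold. With EGFhigh at 6 h, Kyse30 libraries held 30.6, 34.0, 32.2 and 32.8 CPM, all under untreated cells at 39.9, 57.0 and 46.8 CPM. The log2 fold change was -0.57 (95% interval -1.07 to -0.06, adjusted p = 0.259). At 72 h the same dose gave 59.9, 70.2 and 51.8 CPM against 49.9, 29 and 53.7 CPM, and the response at 72 h less that at 6 h was 1.02 (95% interval 0.27 to 1.76, adjusted p = 0.186). The antisense gene CDKN2B-AS1 overlaps CDKN2B, and since the sources used here do not state whether strand was used in counting, their reads cannot be told apart for certain.

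CDKN1C, an imprinted inhibitor, was low, with 1.74 to 22.8 CPM in Kyse30 and 0.58 to 3.49 CPM in FaDu. Its highest Kyse30 values came with EGFhigh at 72 h, at 9.90, 22.8 and 20.2 CPM, against 9.94, 3.24 and 5.52 CPM in untreated cells. Replicate 1 of EGFhigh lay just under the highest untreated library. The log2 fold change was 1.48 (95% interval 0.39 to 2.56, adjusted p = 0.096).

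**Figure D2:**
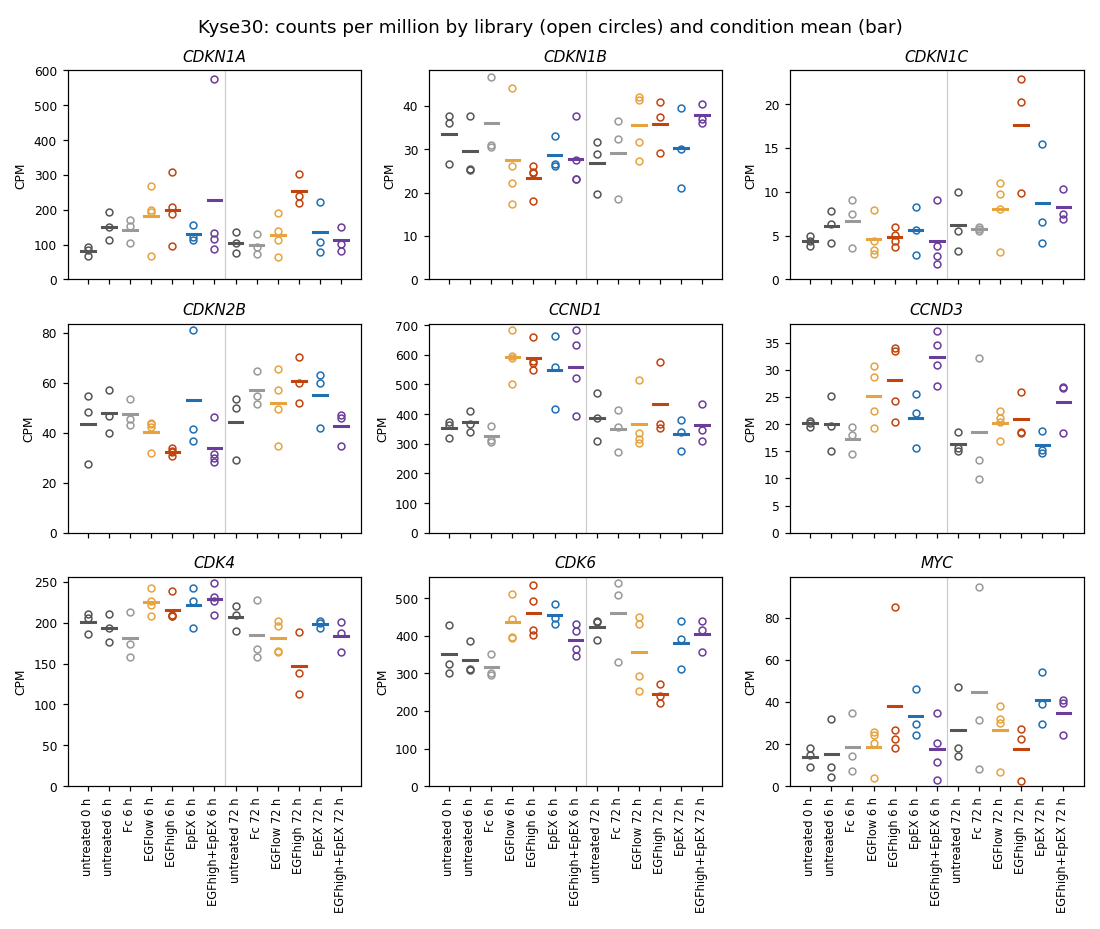
CPM (y axis, linear from 0) of the 9 members tested in Kyse30 by condition (x axis, 0 h and 6 h left and 72 h right of the line); open circles are libraries and bars are condition means. CCND1 stands higher in the 4 treated groups at 6 h (395 to 684 CPM) than in the Fc and untreated groups (305 to 409 CPM, with 1 EGFhigh+EpEX library inside that range), and CDK6 is lowest with EGFhigh at 72 h (221 to 273 CPM).

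Among the D cyclins, CCND1 was higher in Kyse30 6 h after every treatment, and passed the test with EGFhigh+EpEX. CCND1 encodes cyclin D1, the main D-type cyclin of squamous epithelium. Fc-treated cells held 360, 312 and 305 CPM, and cells with EGFhigh+EpEX held 684, 632, 395 and 522 CPM. Every treated library lay above every Fc library, and replicate 3 was the nearest to them. CCND1 rose by 0.78 on the log2 scale, 1.71-fold (SE 0.21, adjusted p = 0.0217, n = 4 and 3), the 1 called member of 9 where 4.52% of all genes were called (3.01% upward). Adjusted p was 0.058 without replicate 1 of EGFhigh+EpEX, and 0.0606, 0.079 and 0.0824 without Fc replicates 1, 3 and 4. With only the 2 groups in the fit it was 0.0975.

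Untreated cells held 409, 367 and 340 CPM of CCND1 at 6 h. With EGFlow they held 682, 501, 589 and 596 CPM and with EGFhigh 550, 573, 659 and 578 CPM. With EpEX they held 418, 664 and 559 CPM. In each of these comparisons the treated libraries were all above their controls. The log2 fold changes were 0.67 (95% interval 0.25 to 1.09, adjusted p = 0.0906) with EGFlow, 0.67 (0.25 to 1.08, adjusted p = 0.0734) with EGFhigh and 0.75 (0.31 to 1.19, adjusted p = 0.185) with EpEX, and none passed the test. Of the 9 members, 0 were called in these 3 comparisons, where 1.5% (0.814% upward, 0.684% downward), 2.55% (1.34% upward, 1.21% downward) and 0.0261% of all genes were. At an unadjusted p under 0.05 there were 2, 3 and 2 members, and DESeq2 called 1, 1 and 0. Of the 14 ERK output genes 0 rose in each of these 3 comparisons, with list medians of 0.20, 0.41 and 0.08. EGR1 of that list fell by 1.20 with EGFlow and by 1.19 with EGFhigh (adjusted p = 0.0383 and 0.0301).

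At 72 h, CCND1 in treated and untreated Kyse30 libraries overlapped. Untreated cells held 470, 386 and 309 CPM, EGFlow 516, 337, 317 and 302 CPM, EGFhigh 577, 367 and 354 CPM, and EpEX 380, 341 and 274 CPM. In FaDu, CCND1 at 6 h was at 701 and 834 CPM untreated and at 798 and 768 CPM with EGFhigh, and treated and control libraries overlapped. At 72 h, FaDu libraries with EGFhigh+EpEX held 808 and 882 CPM, both above Fc at 547 and 697 CPM, without passing (log2 fold change 0.44, adjusted p = 0.413, edgeR). Single libraries held 622 CPM untreated and 1120 CPM with EGFhigh, which was not tested. Replicates 1 and 2 held 439 and 666 CPM untreated and 301 and 38.9 CPM with EGFhigh, on raw totals. At 6 h, the CCND1 response in Kyse30 less that in FaDu replicates 3 and 4 was 0.80 for EGFlow (95% interval 0.14 to 1.45, adjusted p = 0.805), 0.67 for EGFhigh (0.01 to 1.32, adjusted p = 1) and 0.88 for EpEX (0.20 to 1.55, adjusted p = 0.721).

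CCND3, the D cyclin best known from lymphoid cells, lay between 9.85 and 37.1 CPM in Kyse30. With EGFhigh+EpEX at 6 h it stood at 27.0, 34.6, 37.1 and 30.8 CPM, all above Fc at 19.4, 14.5 and 17.9 CPM. The log2 fold change was 0.90 (95% interval 0.33 to 1.47) and the adjusted p of 0.0531 missed the threshold. It was 0.0464 without replicate 1 of EGFhigh+EpEX and 0.0468 without replicate 4.

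CCND2 differed more between sets of libraries than between treatments. Little of it was counted in Kyse30 and in most libraries of FaDu replicates 1 and 2, and much in FaDu replicates 3 and 4. In Kyse30 it had no count in 29 of 43 libraries and 61 counts in all, a pooled level of 0.217 CPM (95% Poisson interval 0.166 to 0.279, counting error only). In FaDu replicates 3 and 4 it lay between 174 and 403 CPM. At 6 h, untreated libraries of FaDu replicates 3 and 4 held 184 and 205 CPM, and the 3 untreated Kyse30 libraries held 3 counts together. The ratio was 1400 (95% interval 480 to 6810, counting error only). The antisense gene CCND2-AS1 overlaps CCND2, so their reads cannot be told apart for certain.

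In the FaDu libraries of replicates 1 and 2, CCND2 was at 808 CPM with EpEX at 72 h in replicate 1, at 388 CPM with Fc at 6 h in replicate 2 and at 26.2 CPM with EpEX at 72 h in replicate 2, on CPM of raw totals. The other 18 libraries reached at most 8.01 CPM. What sets them apart was not tested.

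**Figure D3:**
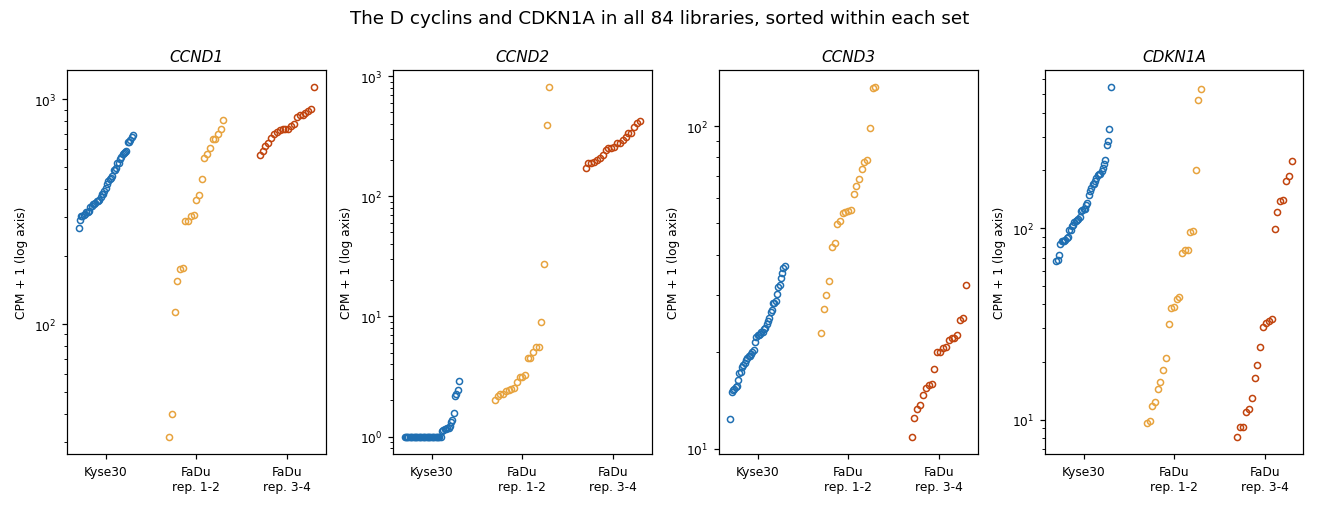
CPM plus 1 (y axis, log scale, raw totals) of the D cyclins and CDKN1A in every library of Kyse30 (43), FaDu replicates 1 and 2 (21) and FaDu replicates 3 and 4 (20), each circle a library, sorted within its set. CCND2 separates Kyse30 from FaDu replicates 3 and 4, and 18 of the 21 libraries of replicates 1 and 2 lie under 10 CPM.

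Within FaDu replicates 3 and 4, CCND2 held 265 and 290 CPM with EGFlow and 257 and 290 CPM with EGFhigh at 6 h. All lay above the untreated libraries, with log2 fold changes of 0.51 (95% interval 0.07 to 0.95, adjusted p = 0.245) and 0.49 (0.05 to 0.93, adjusted p = 0.281). Fc-treated cells went from 189 and 244 CPM at 6 h to 314 and 402 CPM at 72 h (log2 fold change 0.72, 95% interval 0.28 to 1.17, adjusted p = 0.074), and the value was 0.18 with all FaDu libraries. For EGFlow it was 0.92 with all of them. At 72 h, EGFhigh+EpEX held 193 and 285 CPM, both under Fc (log2 fold change -0.58, 95% interval -1.02 to -0.14, adjusted p = 0.397).

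Of the kinases, CDK6 fell in Kyse30 after 72 h of EGFhigh, and stood higher with EGFhigh+EpEX than with EGFhigh alone. No group held EGFhigh with Fc, so the latter difference covers EpEX and Fc together. CDK6 pairs with D cyclins in many epithelia and blood cells. Untreated cells at 72 h held 437, 440 and 390 CPM and cells with EGFhigh held 241, 273 and 221 CPM. The groups were apart, and CDK6 fell by 0.79 on the log2 scale (SE 0.20, adjusted p = 0.00963, n = 3 and 3). It was the 1 called member of 9, where 6.2% of all genes were called (3.04% upward and 3.16% downward). Without replicate 2 of the untreated cells the adjusted p was 0.0518, and without replicate 4 of EGFhigh it was 0.0589.

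With EGFhigh+EpEX at 72 h, CDK6 stood at 415, 440 and 357 CPM, all above EGFhigh alone. It was 0.72 higher on the log2 scale, 1.65-fold (SE 0.20, adjusted p = 0.0276), the 1 called member where 3.58% of all genes were called (1.86% upward and 1.72% downward). The call was lost without the filter on low counts (adjusted p = 0.0517, where CDKN1A was called instead, at -1.19 with adjusted p = 8.75e-05) and with only these 2 groups in the fit (adjusted p = 0.119). Adjusted p was 0.0961 and 0.11 without EGFhigh replicates 1 and 4, and 0.0867 and 0.155 without EGFhigh+EpEX replicates 1 and 2. EGFhigh+EpEX itself overlapped Fc, which held 540, 509 and 330 CPM (log2 fold change -0.19, 95% interval -0.58 to 0.21). EGFlow at 72 h spread from 253 to 450 CPM, and EGFhigh less EGFlow was -0.54 (95% interval -0.92 to -0.17, adjusted p = 0.0961), with adjusted p = 0.0289 without replicate 4 of EGFlow. Of the 9 members 0 were called by edgeR between the doses, where 3.73% of all genes were (2.03% upward and 1.71% downward), while 3 had an unadjusted p under 0.05 and DESeq2 called 1, CDK6.

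At 6 h the CDK6 values went the other way. Untreated cells held 386, 308 and 311 CPM and those with EGFhigh 536, 493, 403 and 415 CPM. The log2 fold change was 0.46 (95% interval 0.09 to 0.84, adjusted p = 0.192), and with EpEX it was 0.52 (0.13 to 0.92, adjusted p = 0.367). The EGFhigh response of CDK6 at 72 h less that at 6 h was -1.25 (SE 0.27, adjusted p = 0.00995), the 1 called member where 1.01% of all genes were called, and it kept the call without each library in turn. In FaDu at 6 h, CDK6 held 103 and 53.4 CPM untreated, 176 and 93.1 CPM with EGFlow, and 169 and 105 CPM with EGFhigh. Replicate 3 was the higher one in all 3 groups, and neither dose passed the test (log2 fold changes of 0.78 and 0.81, adjusted p = 0.333 and 0.33). With the replicate number as a block in the edgeR fit both doses were called (0.79 and 0.84, adjusted p = 0.0114 and 0.00732). With all FaDu libraries the values were 0.55 and 0.12. At 72 h, single libraries of FaDu replicates 3 and 4 held 38.5 CPM untreated, 96.8 CPM with EGFlow, 126 CPM with EGFhigh and 41 CPM with EpEX. EGFhigh thus stood above untreated there, unlike in Kyse30, but single libraries were not tested. The EGFlow library is of replicate 3 and the others are of replicate 4.

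CDK4, the other kinase of the D cyclins, varied least among the members in FaDu, from 191 to 282 CPM. In Kyse30 it was lowest with EGFhigh at 72 h, at 189, 113 and 138 CPM against 221, 190 and 210 CPM untreated. The treated libraries were all under the untreated ones, replicate 1 only just so, and the log2 fold change of -0.50 (95% interval -0.84 to -0.16, adjusted p = 0.072) did not pass. Without that replicate it was -0.71 (adjusted p = 0.0139). TSPAN31 and MARCH9 overlap CDK4 on the opposite strand, so reads of these genes may be mixed.

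Genes of DNA synthesis and mitosis were read beside the kinases as a list of 12. With EGFhigh at 72 h in Kyse30, 8 of 12 fell and none rose, with a list median of -1.30 beside -0.03 over all genes. MCM2, part of the replicative helicase, fell by 2.42 (adjusted p = 0.0045), and CCNA2, the cyclin of S phase and mitosis, fell by 1.82 (adjusted p = 0.00222). CDK1, the mitotic kinase, fell by 1.60 (adjusted p = 0.000273). With EGFhigh+EpEX against EGFhigh, 4 of 12 were higher and none lower, MCM2 by 2.42 (adjusted p = 0.00732) and CDK1 by 1.30 (adjusted p = 0.00464). Among 19 partners of the members in this phase, 2 fell with EGFhigh at 72 h, with a list median of -0.58. They were SKP2, which marks p27 for destruction (-1.60, adjusted p = 0.0434), and CKS1B, its cofactor (-1.06, adjusted p = 0.0203). SKP2 was higher by 1.67 with EGFhigh+EpEX against EGFhigh (adjusted p = 0.0494). In FaDu, CDKN2C, an inhibitor of CDK4 and CDK6, fell by 1.66 with EGFlow (adjusted p = 0.0389) and by 2.52 with EGFhigh (adjusted p = 0.00337) at 6 h.

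In the same Kyse30 comparison of EGFhigh with untreated cells at 72 h, 2 of 9 squamous markers rose, KRT17 by 2.22 and SFN by 1.67 (adjusted p = 0.00776 and 0.00173). Of the leukocyte and endothelial markers, CD68, a lysosomal protein, was the 1 tested and rose by 4.15 (adjusted p = 0.0461), while PECAM1 stayed at 0. Over all Kyse30 libraries, treated ones included, CD68 had a median of 0.519 CPM, near the floor. Its highest value was 11.5 CPM, and 6 libraries had no count. Their part in the fall of CDK6 was not tested.

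**Figure D4:**
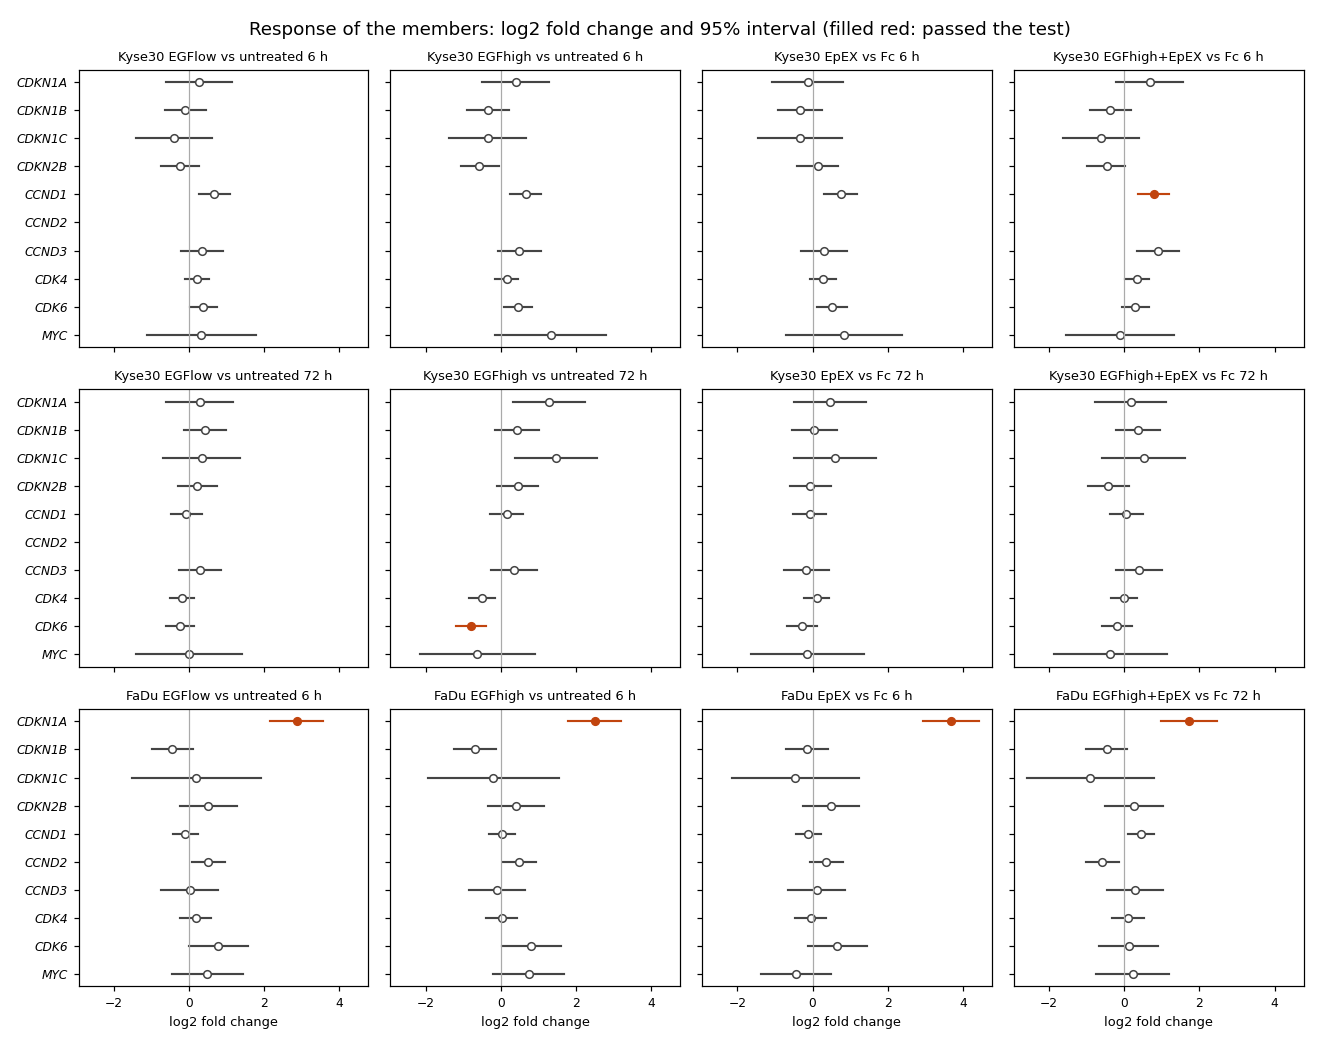
Log2 fold change (x axis) with its 95% interval for each member (rows) in 12 comparisons of treatment with control; filled red points passed the test. CDKN1A passed in all 4 FaDu panels, CCND1 with EGFhigh+EpEX at 6 h and CDK6 with EGFhigh at 72 h in Kyse30. MYC has wide intervals in Kyse30, and CCND2 was not tested there.

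MYC passed the test in no comparison, and among the 9 members tested in Kyse30 it had the largest ratio of highest to lowest library, 35.3 (94.6 against 2.68 CPM). With EGFhigh at 6 h it stood at 84.9, 26.8, 18.1 and 22.4 CPM, against 31.8, 4.31 and 9.11 CPM untreated. Replicate 1 was the highest library of both groups. The log2 fold change was 1.33, with a 95% interval from -0.15 to 2.81. With EGFhigh at 72 h it stood at 2.68, 27.1 and 22.5 CPM, and with Fc at 72 h at 31.5, 94.6 and 8.05 CPM. In FaDu, MYC held 47.5 and 41.2 CPM untreated at 6 h and 35.9 and 113 CPM with EGFhigh. Fc-treated FaDu cells went from 87.2 and 45.3 CPM at 6 h to 26.6 and 22.6 CPM at 72 h (log2 fold change -1.43, 95% interval -2.39 to -0.46, adjusted p = 0.118).

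The partners of MYC were read as a list of 11, of which 10 were tested. In Kyse30, MAX, with which MYC binds DNA, rose by 0.84 with EGFhigh (adjusted p = 0.0498) and by 0.98 with EGFhigh+EpEX (adjusted p = 0.0141) at 6 h. MYCL, a relative of MYC, fell by 1.91 with EGFhigh at 6 h (adjusted p = 0.0214) and by 2.48 at 72 h (adjusted p = 0.00132), and was higher by 2.08 with EGFhigh+EpEX than with EGFhigh at 72 h (adjusted p = 0.0103). MXD1, which competes with MYC for MAX, rose by 1.92 with EGFhigh at 72 h in Kyse30 (adjusted p = 0.0211), as did MLX, which joins related factors on E-boxes, by 1.19 (adjusted p = 0.00481). MXI1, a further rival of MYC for MAX, fell by 1.06 with EGFhigh+EpEX at 6 h (adjusted p = 0.0258). In FaDu at 6 h, 1 of the 10 rose with each of EGFlow, EGFhigh and EpEX, and 1, 0 and 1 fell. MXD1 rose by 1.96 with EGFlow, 1.88 with EGFhigh and 1.96 with EpEX (adjusted p = 0.0126, 0.0179 and 0.0118). MNT, also a partner of MAX, fell by 0.93 with EGFlow (adjusted p = 0.0431), and MXD3, a relative of MXD1, fell by 1.62 with EpEX (adjusted p = 0.0402).

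Established targets of MYC, mostly of ribosome building, were read as a list of 16. In Kyse30 at 6 h, 7 of 16 rose with EGFhigh+EpEX and none fell, with a list median of 0.76 beside -0.01 over all genes. With EGFhigh 2 rose and with EGFlow 1 rose, none fell, and all 16 values were above 0 in both, with medians of 0.65 and 0.54. PPAN, an assembly factor of the large ribosomal subunit, rose by 1.93 (adjusted p = 0.0012) with EGFhigh+EpEX, and SRM, the spermidine synthase, by 1.79 (adjusted p = 9.82e-05). RRS1 and BOP1, also ribosome assembly factors, rose by 1.61 and 1.11 (adjusted p = 0.00882 and 0.00935). NOP16, a nucleolar protein, rose by 1.18 with EGFhigh (adjusted p = 0.0111) and by 1.16 with EGFlow (adjusted p = 0.0192). At 72 h with EGFhigh 1 of 16 rose, LDHA, the lactate dehydrogenase (1.39, adjusted p = 0.00855), and the median was -0.06. In FaDu at 6 h, 13, 15 and 12 of the 16 values were above 0 with EGFlow, EGFhigh and EpEX, with medians of 0.20, 0.27 and 0.10.

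Untreated cells of both lines were compared at 6 h for their starting levels, where 6 of 10 members were called and 22.4% of all genes. In Kyse30, CDKN1A was higher than in FaDu by 2.75 on the log2 scale (SE 0.55, adjusted p = 0.000119), 6.72-fold. CDK6 was higher by 2.07 (SE 0.29, adjusted p = 1.79e-07), with 386, 308 and 311 CPM against 103 and 53.4 CPM. CDKN2B was higher by 1.66 (SE 0.33, adjusted p = 0.000114), and CDKN1C by 2.08 (SE 0.69, adjusted p = 0.022). The call of CDKN1C was lost without replicate 4 of Kyse30 (adjusted p = 0.068) and without replicate 3 of FaDu (adjusted p = 0.326). CCND1 was lower in Kyse30, by -1.08 (SE 0.23, adjusted p = 0.00034), and CCND2 was lower as given above. The untreated FaDu libraries of replicates 1 and 2 at 6 h did not show the CCND1 difference: they held 545 and 174 CPM on raw totals, against 443, 355 and 330 CPM in Kyse30. Of CCND2 they held 2.14 and 1.25 CPM, against 0.564, 0 and 0 CPM in Kyse30. FaDu replicates 3 and 4 held 187 and 209 CPM of CCND2 on the same scale. LTO1 overlaps CCND1 on the opposite strand. MYC was lower by -1.61 without passing (95% interval -3.15 to -0.08, adjusted p = 0.129), and passed without replicate 1 of Kyse30 (-2.76, adjusted p = 0.0195). The line and whatever else differed in how its libraries were made cannot be told apart.

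The controls were compared among themselves. In Kyse30 no member was called by edgeR between Fc and untreated cells at 6 h or 72 h, between untreated cells at 6 h and 0 h, or between 72 h and 6 h, where 0%, 0%, 0% and 1.55% of all genes were called. In these 4 comparisons 0 members had an unadjusted p under 0.05, and DESeq2 called 0. Over all 28 comparisons, 10 had a called member and 18 had none. The share of all genes called was 0.127% to 22.4% in the 10 and 0% to 3.73% in the 18. Those 18 held 167 member tests, of which 19 had an unadjusted p under 0.05, and DESeq2 called 4 members in them. By share, genes at an unadjusted p under 0.05 ran there from 275 of 16022 (FaDu, Fc against untreated at 6 h) to 2379 of 15350 (Kyse30, EGFhigh against EGFlow at 72 h). No share pooled over comparisons was computed, so the tally is a count only.

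When the 13 Kyse30 conditions were ordered by mean CPM, the ranges of neighbours overlapped in 12 of 12 steps for each member except CDK6. For CDK6, 11 of 12 overlapped, and the lowest mean, that of EGFhigh at 72 h, lay apart from the next one, Fc at 6 h, although 1 EGFlow library at 72 h (253 CPM) was inside its range. CDKN1A, CDKN1C and CDKN2B had their highest means with EGFhigh at 72 h (253, 17.7 and 60.6 CPM), where CDK4 and CDK6 had their lowest (147 and 245 CPM). Across the 13 condition means, CDKN1C and CDK4 had a Pearson correlation of -0.907 and CDK4 and CDK6 one of 0.77, a description over conditions whose libraries share 1 scaling and unequal depth.

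By the same measure, the genes most like CCND1 over the 13 conditions among 10226 candidates were RRP9, RHBDF2 and GTPBP4 (r = 0.987, 0.979 and 0.974). Among those most like CDK6 were NLN and ATP2B1 (0.932 and 0.913). For CDKN1A they were ADAM19, DUSP3 and FGFBP1 (0.92, 0.911 and 0.9), and for CDKN1C they were GM2A, a row with no paired symbol, and LGALS3 (0.944, 0.942 and 0.941). For CDK4 they were KRT80, TFPI2 and SS18L2 (0.949, 0.948 and 0.937), for CDKN2B LZTS2, SFR1 and HR (0.944, 0.901 and 0.896), for CCND3 MRPL41, DPM2 and RPS19BP1 (0.927, 0.916 and 0.913), and for CDKN1B PCBD1, C8orf82 and FBXO32 (0.903, 0.871 and 0.862). MYC had its nearest genes at lower values, SNAI2, ERRFI1 and MCL1 (0.855, 0.848 and 0.847).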

How the data were processed

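RNA of 43 Kyse30 and 41 FaDu samples was sequenced as libraries of 3′ ends. The authors aligned the reads with STAR and counted them per gene with HTSeq on GRCh38 (versions are not given in the sources used here), and deposited raw counts, 1 file per sample. Rows that name no gene, 33.7% to 60.3% of a file's total, were left out. No column was left unmapped (0). Whether strand or molecular identifiers were used in counting is not given in the sources used here, so intervals and floors cover counting error only. In the shallowest library 3 counts correspond to 1.54 CPM.

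Counts were filtered (filterByExpr, minimum count 10 and minimum total 15), scaled by TMM and tested with edgeR 4.0.16 (R 4.3.3) by the quasi-likelihood F test, with 1 fit over all Kyse30 conditions (15350 genes), 1 over FaDu replicates 3 and 4 (16022 genes) and 1 over both (19634 genes). Benjamini-Hochberg adjustment ran over all genes tested. DESeq2 1.42.0, no filter, another scaling, a replicate block, pooled controls, fits of only the 2 groups, all FaDu libraries and leaving out each library were the alternatives. Leave-outs in the fit over both lines kept the dispersion trend of the whole fit. The scripts were tested on simulated data.

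Same-numbered replicates deviated together with a mean correlation of 0.0633 in Kyse30 (lowest -0.131) and 0.0713 in FaDu (lowest -0.0362). Between replicates of other numbers it was -0.0216 and -0.0713. In FaDu the groups were pairs centred on their mean, so that value is the same-number one with its sign turned and adds nothing. The check does not settle whether numbers pair samples, and the main fits used no block. No libraries were duplicates (chi-square per degree of freedom of at least 8.42). All 10 members are named, and from each other list at most 4 called genes in each comparison described, by size of log2 fold change. The genes most like a member are the 3 with the highest Pearson correlation of condition means of log2 CPM, among genes of at least 5 CPM. For CDK6, 1 of the 3 is not reported here. The members and lists were chosen with earlier results of these data known, and the list counts are no independent support.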

Additional observations from a re-analysis of the deposited data

Results flagged for a closer look

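Each member was checked in each Kyse30 condition of 4 or more libraries, which gave 38 sets of values. In 7 of the 38, 1 library stood far from the others. The check marks about 1 in 20 sets by chance when values are independent and normal. These sets share libraries and CPM was not checked for that shape, so the 7 measure no excess over chance. CDKN1A was at 575 CPM in replicate 1 of EGFhigh+EpEX at 6 h, where the other 3 lay between 85.7 and 132 CPM. MYC was at 84.9 CPM in replicate 1 of EGFhigh at 6 h, where the others lay between 18.1 and 26.8 CPM. CCND1 was at 516 CPM in replicate 1 of EGFlow at 72 h, with the others between 302 and 337 CPM. CDKN2B was at 32 CPM in replicate 2 of EGFlow at 6 h, with the others between 42.3 and 44 CPM. CDK4 was at 239 CPM in replicate 3 of EGFhigh at 6 h, with the others at 208 and 209 CPM. CCND2 was at 1.31 CPM in replicate 4 of EGFhigh+EpEX at 6 h and at 1.51 CPM in replicate 4 of EGFlow at 72 h, with the others at most at 0.134 CPM.

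For 2 members the response itself differed between groups of samples. The EpEX response of CDKN1A at 6 h was lower in Kyse30 than in FaDu by -3.80 on the log2 scale (adjusted p = 0.00497, edgeR). The EGFhigh response of CDK6 in Kyse30 was lower at 72 h than at 6 h by -1.25 (adjusted p = 0.00995, edgeR).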

How the results depend on the processing

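Counts of called members are given first as reported and then under each alternative that moved them. Without the filter on low counts they went from 0 to 1 for EGFhigh at 6 h (MYC) and from 1 to 2 for EGFhigh at 72 h in Kyse30 (with CDKN1A), from 0 to 1 for EGFhigh against EGFlow at 72 h, from 1 to 2 for EGFlow and for EGFhigh in FaDu (with CDK6), from 0 to 3 for Fc at 72 h against 6 h in FaDu, from 0 to 1 for the EGFlow and EGFhigh responses between lines, from 1 to 2 for the EpEX response between lines and from 1 to 2 for the EGFhigh response at 72 h against 6 h. For EGFhigh+EpEX against EGFhigh at 72 h the count stayed at 1 while CDK6 was lost and CDKN1A gained. DESeq2 called 1 in place of 0 for EGFlow and EGFhigh at 6 h (CCND1), for EGFhigh against EGFlow at 72 h (CDK6) and for Fc over time in FaDu (CCND2), and 2 in place of 1 for EGFhigh+EpEX at 6 h. With untreated and Fc libraries together as controls there were 1 for EGFlow, 2 for EGFhigh and 2 for EGFhigh+EpEX at 6 h, and 3 for EGFhigh at 72 h. With only the 2 groups in the fit there were 1 for EGFlow and 1 for EGFhigh at 6 h, 0 for EGFhigh+EpEX at 6 h, 2 for EGFhigh at 72 h, 0 for EGFhigh+EpEX against EGFhigh at 72 h and 1 for Fc over time in FaDu (MYC). With all FaDu libraries there were 0 for EGFlow, EGFhigh, EpEX and EGFhigh+EpEX, CDKN1B with EGFhigh at 6 h turned from -0.69 to 0.41, CCND1 with Fc over time turned from -0.34 to 0.18, and the uncalled CDK6 value with EpEX went from 0.66 to -1.11. The cause of these changes was not tested. Another scaling (RLE) moved no count, and the median of all genes by at most 0.02. Over all genes, the count for EGFlow at 6 h in Kyse30 was 230, against 413 by DESeq2, 776 with pooled controls and 20 to 268 without 1 library. For EGFhigh at 6 h it was 391, against 673, 1106 and 113 to 327. For EGFhigh+EpEX at 6 h it was 694, against 1112, 1042 and 222 to 835, and for EGFhigh at 72 h 951, against 1233, 1628 and 475 to 779. For EpEX at 6 h it was 4, against 83 by DESeq2. For EGFhigh+EpEX against EGFhigh at 72 h it was 550, against 846 by DESeq2 and 194 with only the 2 groups. In FaDu the counts of 553, 491, 560 and 131 fell to 0 with all libraries, and without 1 library they were 192 to 398, 149 to 397, 254 to 468 and 9 to 69. Leaving out 1 library gave 0 to 2 members for EGFhigh+EpEX at 6 h and for EGFhigh at 72 h in Kyse30, 0 to 1 for EGFhigh against EGFlow, for EGFhigh+EpEX against EGFhigh at 72 h, for EGFhigh+EpEX at 72 h in FaDu and for the EpEX response between lines, 1 to 2 for the EGFhigh response at 72 h against 6 h and 5 to 7 for untreated cells between lines. With the replicate number as a block, 18 members were called in place of 9 over 27 comparisons: 1 for EGFlow and 1 for EGFhigh at 6 h, 2 for EGFhigh+EpEX at 6 h in Kyse30, 2 each for EGFlow, EGFhigh and EpEX at 6 h in FaDu (CDK6 gained, adjusted p = 0.0114, 0.00732 and 0.042), 2 for EGFhigh+EpEX at 72 h in FaDu (CCND2 gained), 1 for Fc over time in FaDu and 1 for the EGFlow response between lines. The block raised the counts over all genes in these comparisons too. In Kyse30 at 6 h they were 417 for EGFlow, 636 for EGFhigh and 1091 for EGFhigh+EpEX. In FaDu at 6 h they were 766, 684 and 763 for EGFlow, EGFhigh and EpEX. They were 246 for EGFhigh+EpEX at 72 h and 747 for Fc over time in FaDu, and 47 for the EGFlow response between lines. The check made does not settle whether the numbers pair the samples, so the block is given as another fit. With 1 or 2 FaDu libraries per condition, small differences could not be told from spread.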
